A study of Homo sapiens with 27 samples.

Results

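The complement components and regulators described here were the 9 genes C3, CFB, CFI, C1R, C1S, SERPING1, CD46, CD55 and CD59. They were chosen by gene symbol, and 9 of 9 were found among the 60604 gene entries used. RNA was sequenced from 27 libraries of EA.hy926 cells, a permanent human line that arose from the fusion of an umbilical vein endothelial cell with the lung carcinoma line A549. The design asks how endothelial cells differ after exposure to mesenchymal stromal cells (MSCs) or their products, and whether senescence of the MSCs makes a difference.

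Senescent co-culture and young co-culture were EA.hy926 cells grown in direct contact with MSCs in equal proportion. In senescent CM and young CM they received MSC conditioned medium mixed with an equal part of their own medium. In senescent ECM and young ECM they were seeded onto extracellular matrix left after MSCs had been stripped away in 5 min with Triton X-100 at 0.5% and NH4OH at 20 mM. Each exposure lasted 48 h. The controls were EA.hy926 cells that met no MSC product. The MSCs were ASC52telo, a single adipose line immortalised with telomerase. Senescent MSCs had received the DNA crosslinker mitomycin C at 1.5 µg/mL for 18 h and 10 days of further culture, and young MSCs had received none. The genotype of every group is labelled wt. Senescent co-culture had 3 libraries, carrying the numbers 2, 3 and 4, and every other group had 4. Replicates 2 to 4 (21 libraries) were compared, and the 6 libraries of replicate 1 are shown apart. The labels do not say whether replicates came from separate cultures, so the p-values cover the spread from library to library, and that may be technical.

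Complement is a cascade of plasma proteins that marks and lyses cells. C1R and C1S are the proteases of the C1 complex that starts the classical pathway, C3 is the central protein on which all pathways meet, and CFB builds the convertase of the alternative pathway. CFI and SERPING1 are secreted inhibitors, while CD46, CD55 and CD59 sit on the cell surface, where endothelial cells use them to protect themselves from complement carried by blood.

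The libraries held 66320519 to 111512357 counts. The endothelial markers listed for this check summed to 1481 to 3722 CPM (counts relative to the library total, with TMM scaling) in the 21 libraries, with 10 of 12 at 1 CPM or more in every group; EMCN and CLDN5 were at or near 0. The 13 stromal markers summed to 338.9 to 445 CPM in senescent co-culture, 166 to 230 CPM in young co-culture and 32.8 to 79.7 CPM in the other groups. In replicate 1 of control, ECM and CM they summed to 5149 to 9916 CPM, so those 5 libraries hold much stromal RNA whatever their label. Young co-culture replicate 1 had 106 CPM of them, but stood apart otherwise: its TMM factor was 0.459, against 0.949 to 1.084 in the other 26 libraries, and its 6 epithelial markers summed to 18072 CPM, against 3862 to 4489 CPM in replicates 2 to 4 of its group. The labels do not say that MSCs were removed before RNA extraction from co-cultures, and the extraction protocol names MSCs as the RNA source. RNA of the MSCs and RNA of the endothelial cells, or fewer cells of a type and less RNA per cell, therefore cannot be told apart in these values.

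By level the members fell into 3 tiers. Relative to exon length, the median over the 21 libraries was 168.5 CPM per kb for CD59, 13.0 for CD55 and 12.7 for CD46. C1S stood at 0.173, C1R at 0.157, C3 at 0.143 and SERPING1 at 0.0423 CPM per kb. CFI had 0 to 8 counts per library and CFB had 0. The 3 membrane regulators thus stood far above the secreted proteins on this scale. The 7 genes other than CFB and CFI passed the low-count filter in every fit and were tested.

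Each test below is edgeR's quasi-likelihood test on counts with Benjamini-Hochberg adjustment over all genes tested, and a gene is called where the adjusted p is under 0.05. C1R and C1S were higher in both co-cultures than in control, and C3 in senescent co-culture; averaged over MSC state, all 3 were higher in co-culture than in ECM and CM. C3 was in addition higher with senescent than with young MSCs, and its young co-culture values overlapped those of young CM and young ECM. CD55 was higher on ECM than in control and CM. No member was called for senescent against young CM or ECM, or for either CM group against control.

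C1R (ENSG00000159403.18; chr12:7080199-7092607, minus strand, GENCODE 29 on GRCh38), the protease that activates C1S, had 3.07, 2.44 and 1.88 CPM in senescent co-culture. Young co-culture had 1.38, 1.61 and 1.56 CPM, and control had 0.596, 0.690 and 0.489 CPM. Every co-culture library lay above every control library, and the senescent co-culture libraries above the young. The log2 fold change against control was 2.07 ± 0.23 (SE, adjusted p = 0.00017) in senescent co-culture and 1.37 ± 0.23 (adjusted p = 0.0031) in young co-culture. Senescent against young co-culture gave 0.70 ± 0.21, which did not pass (adjusted p = 0.43). In CM and ECM the C1R levels lay between 0.590 and 1.19 CPM and overlapped those of control. C1R shares 672 exon bases, 11.4% of its exon length, with its neighbour C1RL on the same strand.

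C1S (ENSG00000182326.15; chr12:6988259-7071032, plus strand), which cleaves C4 and C2, had 4.96, 3.64 and 2.78 CPM in senescent co-culture. It had 1.68, 2.35 and 1.38 CPM in young co-culture and 0.812, 1.04 and 0.862 CPM in control. As for C1R, the 3 groups did not overlap. The fold change against control was 2.08 ± 0.26 on the log2 scale in senescent co-culture (adjusted p = 0.00047). In young co-culture it was 1.01 ± 0.26 (adjusted p = 0.032). The young co-culture call was lost when control replicate 2 or 4, or young co-culture replicate 2 or 3, was left out (log2 fold change 0.77 to 1.04). C1S shares 3.54% of its exon bases with other entries on its strand. Senescent against young co-culture gave 1.07 ± 0.25, with an adjusted p of 0.16 in edgeR and 0.0096 in DESeq2.

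C3 (ENSG00000125730.17; chr19:6677704-6730562, minus strand) had 7.37, 5.64 and 3.98 CPM in senescent co-culture, against 1.46, 1.49 and 0.936 CPM in young co-culture. Control had 0.857, 0.989 and 0.958 CPM. The senescent co-culture libraries stood above all 18 others of replicates 2 to 4, while young co-culture overlapped control. Senescent exceeded young co-culture by 2.13 ± 0.25 on the log2 scale (adjusted p = 0.0034), and control by 2.61 ± 0.26 (adjusted p = 8.4e-05). Young co-culture against control gave 0.48 ± 0.25 (adjusted p = 0.28).

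C3 in the other modes did not separate by MSC state. Senescent CM had 0.997, 1.44 and 0.865 CPM and young CM 1.73, 1.28 and 0.872 CPM, a log2 difference of −0.25 ± 0.31 (adjusted p = 0.82). Senescent ECM had 1.49, 1.25 and 0.751 CPM and young ECM 1.19, 1.16 and 0.705 CPM, a difference of 0.19 ± 0.31 (adjusted p = 1.0). The difference between the senescent-minus-young effects was itself tested. It was 2.37 ± 0.44 for co-culture minus CM (adjusted p = 0.033) and 1.95 ± 0.44 for co-culture minus ECM (adjusted p = 0.31), and the first lost its call in 9 of the 12 fits that left out 1 library (adjusted p up to 0.17). The difference from ECM was called for C3 with a replicate block (1.95, adjusted p = 0.0039), in DESeq2 (adjusted p = 0.015) and with no filter on low counts (adjusted p = 0.00013).

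SERPING1 (ENSG00000149131.17; chr11:57597387-57614853, plus strand), the inhibitor of C1R and C1S, was read with only 4 to 33 counts per library in replicates 2 to 4. It had 0.412, 0.294 and 0.169 CPM in senescent co-culture, 0.120, 0.152 and 0.178 CPM in young co-culture and 0.0632, 0.165 and 0.0426 CPM in control. The senescent co-culture libraries lay above those of control, the lowest of them only just. The log2 fold change of 1.71 ± 0.48 did not pass in edgeR (adjusted p = 0.052) and passed in DESeq2 (adjusted p = 0.036). In edgeR its adjusted p was 0.011 without control replicate 3, 0.047 without senescent co-culture replicate 4 and 0.23 without senescent co-culture replicate 2.

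**Figure D1:**
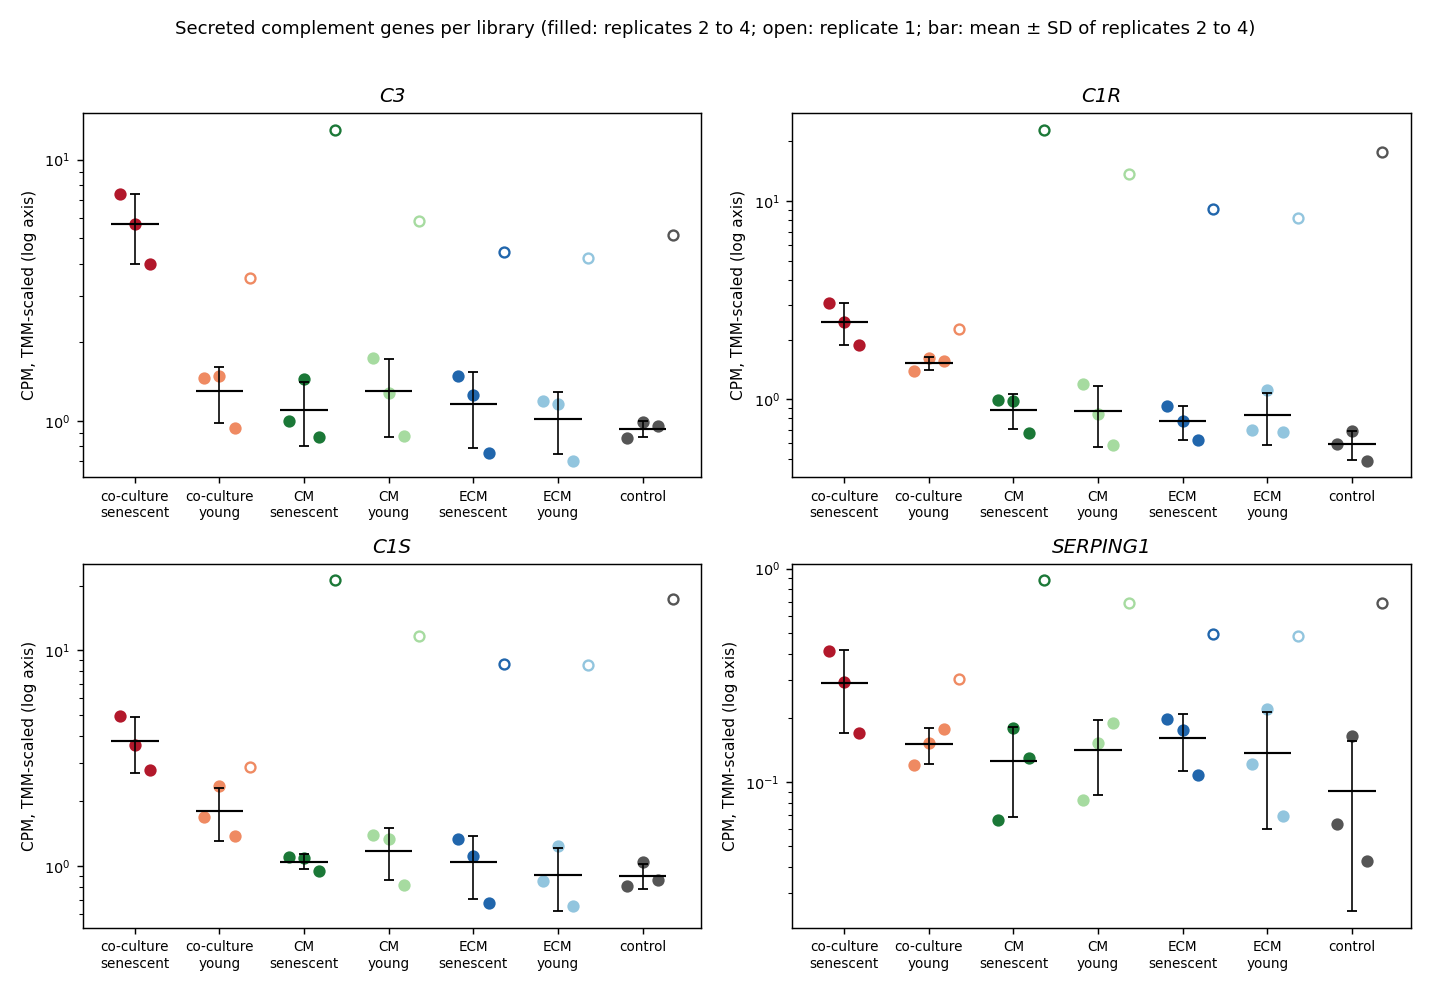
Levels of C3, C1R, C1S and SERPING1 in each library, in CPM with TMM scaling on a log axis, for the 7 groups; filled points are replicates 2 to 4, open points replicate 1, and the bars give the mean ± SD of replicates 2 to 4. Among the filled points senescent co-culture lies above control in all 4 panels, and the open points of control, ECM and CM lie above the filled points of their groups.

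Set against the background, 4 of 7 tested members (C3, C1R, C1S and CD55) were called higher in senescent co-culture against control, where 8.05% of all genes were called. In young co-culture against control 2 of 7 were called, against 9.68% of all genes. In senescent against young co-culture 1 of 7 was called, against 0.395%. These comparisons share their control or co-culture libraries. The median log2 fold change of the 7 tested members was 1.71 in senescent co-culture and 0.48 in young co-culture against control, beside 0.02 and 0.01 over all genes tested.

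Averaged over both MSC states, co-culture exceeded CM by 1.14 ± 0.22 for C3 (adjusted p = 0.0015), 1.104 ± 0.19 for C1R (adjusted p = 0.00055) and 1.19 ± 0.21 for C1S (adjusted p = 0.0006) on the log2 scale. Against ECM the differences were 1.29 ± 0.22 for C3, 1.24 ± 0.19 for C1R and 1.398 ± 0.21 for C1S (adjusted p = 0.00015, 4.8e-05 and 3.4e-05). SERPING1 gave 0.63 ± 0.35 against CM and 0.49 ± 0.34 against ECM, neither past the threshold (adjusted p = 0.21 and 0.33). Endothelial markers were themselves higher in co-culture: of 10 tested, 8 were called higher against CM (median log2 fold change 0.79), and against control 7 with senescent (0.94) and 8 with young MSCs (0.98). With libraries scaled to the sum of these markers in place of TMM, C3, C1R and C1S against CM gave 0.41, 0.37 and 0.45 (adjusted p = 0.14, 0.18 and 0.13), against a median of all genes of −0.76. Under the same scaling, young co-culture against control gave 0.48 for C1R and 0.13 for C1S (adjusted p = 0.16 and 0.73; median of all genes −0.86), while the calls of the 3 genes in senescent co-culture against control and in co-culture against ECM held. With CD55, 4 of 7 members were called against CM, where 17% of all genes were, and with CD55 and CD59 5 of 7 against ECM, where 26.9% were.

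**Figure D2:**
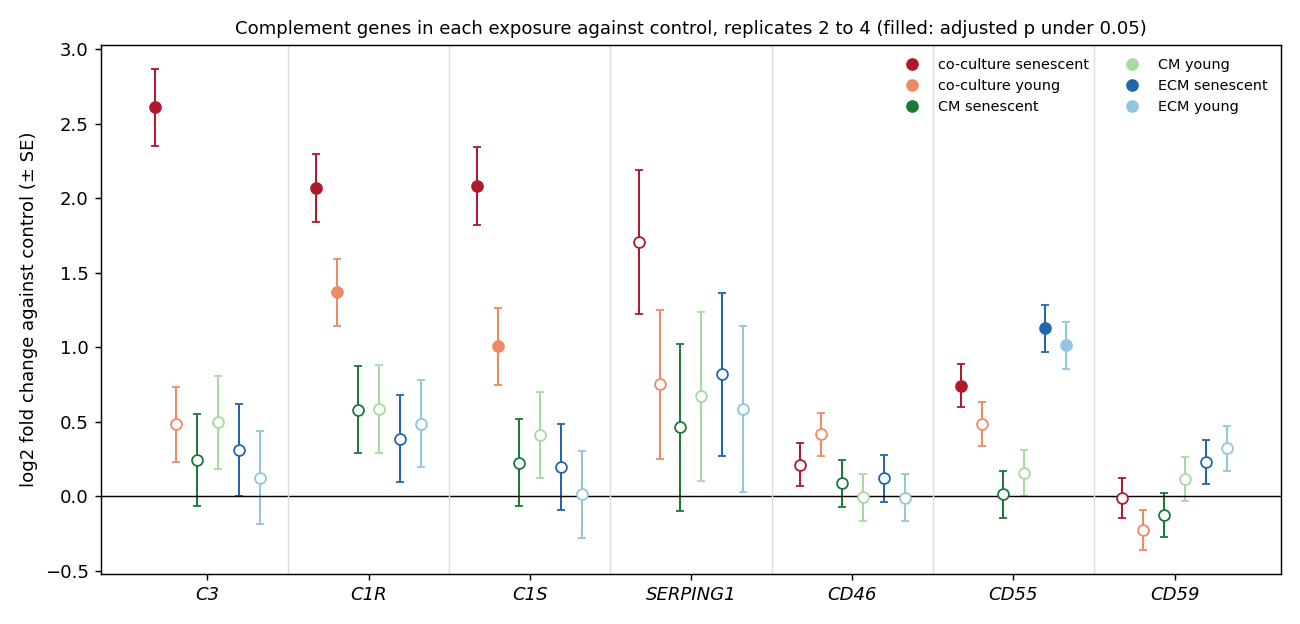
Log2 fold change against control (± SE) of the 7 tested members in each of the 6 exposures, replicates 2 to 4; filled points have an adjusted p under 0.05. C3, C1R and C1S stand above 2 in senescent co-culture, CD55 is near 1 on both ECMs, and no CM point is filled.

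C3, C1R and C1S correlated with collagen genes over the 21 libraries, but C3 did not follow COL1A1 in every group. COL1A1, the main collagen I chain and a stromal marker, had 118 to 169 CPM in senescent co-culture, 47.3 to 71.7 CPM in young co-culture and 4.28 to 10.3 CPM in the other 15 libraries. C3 in young co-culture, at 0.936 to 1.49 CPM, overlapped control, at 0.857 to 0.989 CPM. Over the 21 libraries the 3 protein-coding genes of at least 5 CPM most like C1S (Pearson r of log2(CPM + 1)) were COL3A1 at 0.96, COL6A2 at 0.94 and COL1A2 at 0.94. Those most like C1R were COL6A2 and COL3A1 at 0.95 and COL1A2 at 0.945, and those most like C3 were COL3A1 at 0.89 and SERPINE2 and COL6A2 at 0.87. Among the members, r was 0.96 between C1R and C1S, 0.94 between C3 and C1S and 0.88 between C3 and C1R. These are descriptions over 21 libraries that share their groups and carry no test.

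Replicate 1 showed the same genes where stromal RNA was high. In the 5 libraries of control, ECM and CM with that number, COL1A1 had 1887 to 5262 CPM and TERT, which the MSC line carries as a transgene, 633.5 to 1274 CPM. C1R had 22.9 CPM in senescent CM, 13.7 in young CM, 9.11 in senescent ECM, 8.21 in young ECM and 17.7 in control. C1S had 21.1, 11.7, 8.69, 8.61 and 17.2 CPM in the same 5 libraries, and C3 had 13.0, 5.82, 4.41, 4.20 and 5.16 CPM. Every one of these lay above the 15 libraries of replicates 2 to 4 of those groups. With all 4 replicates in the fit, C1R and C1S turned to lower in co-culture against control, CM and ECM, and no member was called in co-culture against control. The share of all genes called in that fit is not given here.

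The proportion to collagen differed between these libraries. Per 1000 CPM of COL1A1 there were 33.7, 42.3 and 43.6 CPM of C3 in senescent co-culture, in rising order, and 19.8 to 24.3 in young co-culture. In the 5 replicate 1 libraries of control, ECM and CM there were 1.28 to 2.47. C1S gave 23.6 to 29.4 in senescent co-culture, 23.5 to 38.4 in young co-culture and 2.58 to 4.56 in those 5 libraries. In the 15 libraries of those groups with little COL1A1, C3 gave 113 to 232. Young co-culture replicate 1, with 3.52 CPM of C3 and 30.2 CPM of COL1A1, gave 116 for C3 and 95.5 for C1S. Relative to COL1A1, C3 was higher in senescent than in young co-culture among replicates 2 to 4, where C1S overlapped, and the young library of replicate 1 lay above both groups. The ratio of C3 to C1S was 1.43 to 1.55 in senescent co-culture, 0.633 to 0.869 in young co-culture and 0.905 to 1.403 in the other groups of replicates 2 to 4. In replicate 1 it was 1.22 in young co-culture and 0.299 to 0.615 in the other 5 libraries. TERT went the other way, with 3.00 to 4.50 CPM in senescent and 5.94 to 7.97 CPM in young co-culture. The part of MSC RNA in the co-culture values was not tested.

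**Figure D3:**
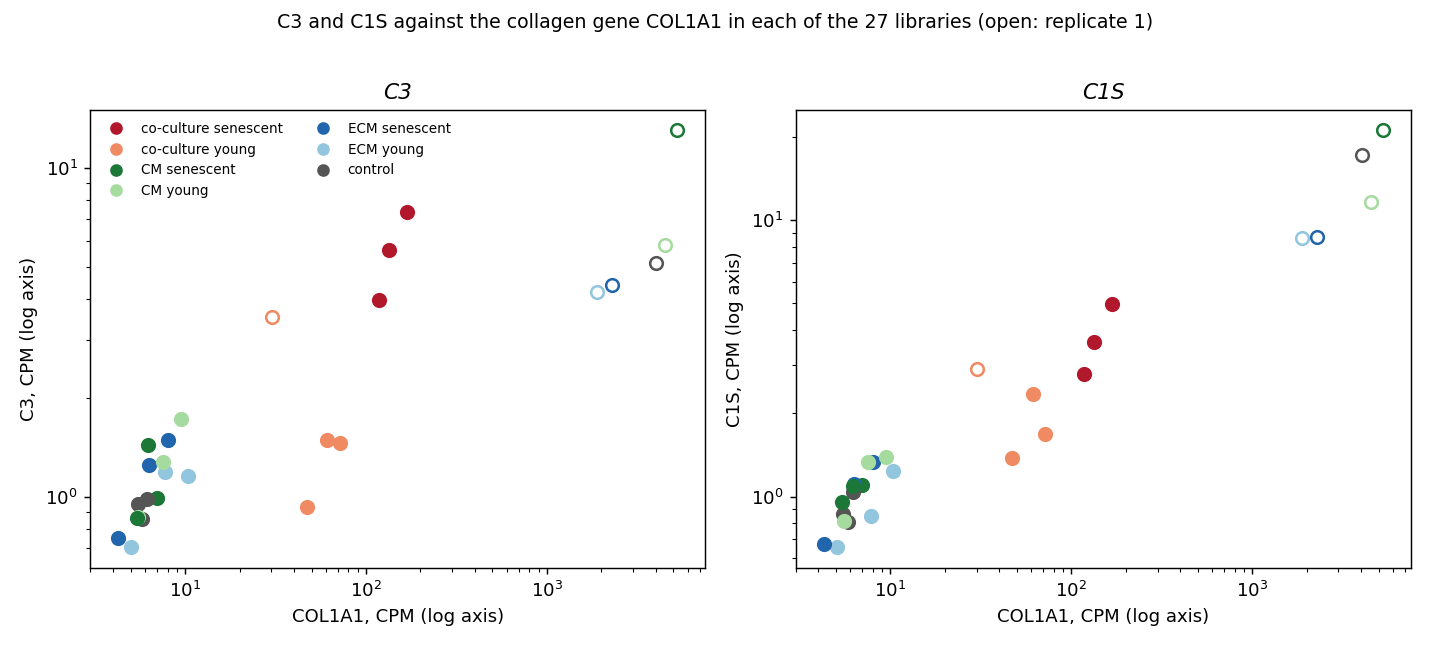
C3 and C1S against COL1A1 in each of the 27 libraries, in CPM on log axes; open points are replicate 1 and colours are groups. In COL1A1 the co-culture libraries lie between the low cluster of replicates 2 to 4 and the 5 replicate 1 libraries with 1887 to 5262 CPM of COL1A1, and senescent co-culture lies above young co-culture in C3.

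CD55 (ENSG00000196352.16; chr1:207321376-207386804, plus strand), decay-accelerating factor, dismantles the C3 and C5 convertases on the cell surface. It had 110.4, 127 and 132 CPM on senescent ECM, 114, 119 and 108 CPM on young ECM and 46.1, 65.6 and 57.5 CPM in control. Both ECM groups lay above every control library and every CM library. The log2 fold change against control was 1.13 ± 0.16 on senescent ECM (adjusted p = 0.0056) and 1.01 ± 0.16 on young ECM (adjusted p = 0.0067). CD55 was the only member called in either, 1 of 7, where 0.3% and 0.649% of all genes were called. Every fit that left out 1 library kept both calls. Senescent against young ECM gave 0.11 ± 0.16 (adjusted p = 1.0).

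In CM, CD55 overlapped control. Senescent CM had 58.8, 62.6 and 48.1 CPM and young CM 62.4, 67.6 and 55.2 CPM, with log2 fold changes against control of 0.01 ± 0.16 and 0.16 ± 0.16 (adjusted p = 1.0 and 0.86). ECM exceeded CM by 0.98 ± 0.11 (adjusted p = 3.2e-05), 1 of 7 members called where 11.8% of all genes were. In co-culture CD55 had 97.1, 90.1 and 93.7 CPM with senescent MSCs and 72.3, 86.1 and 76.6 CPM with young ones. Both groups lay above control and below the ECM groups. The fold change against control was 0.74 ± 0.15 with senescent MSCs (adjusted p = 0.0085) and 0.48 ± 0.15 with young ones (adjusted p = 0.059), and averaged co-culture was lower than ECM, at −0.49 ± 0.10 (adjusted p = 0.00059), and higher than CM, at 0.50 ± 0.10 (adjusted p = 0.0017).

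The co-culture values of CD55 depend on the scaling. With the scaling to endothelial markers, its log2 fold change in senescent co-culture against control was −0.28, and against CM in averaged co-culture −0.25. That scaling moved the median of all genes by −0.97 and −0.76, so CD55 stayed above the median gene. The senescent co-culture call was also lost without senescent co-culture replicate 2 or without control replicate 4. In replicate 1 the 2 ECM libraries had 78.3 CPM (senescent) and 69.8 CPM (young), above the 47.9 to 55.1 CPM of the CM and control libraries of that number. With all 4 replicates fitted, the ECM fold changes were 1.00 and 0.87 (adjusted p = 0.40 and 0.28).

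Of the 9 members, 6 had a promoter in the RefSeq table used (GRCh38.p14); C3, C1S and SERPING1 had none there. CD46 lies on chromosome 1 like CD55, and passed no test with all of replicates 2 to 4 and TMM scaling. The stretches below are shown because CD55 and C1R changed while CD46 holds the same short motif as CD55. Each is 30 bases, 5′ to 3′ on the strand of the gene, and capitals mark the match, searched on both strands over the 250 bases before each start site.
CD55, 147 to 143 bases before its start, chr1:207321519-207321548, plus strand: ccccggggcgtaTGACGccggagccctctg
CD55, 70 to 66 bases before its start, chr1:207321596-207321625, plus strand: tcccacccttggTGACGcagagccccagcc
CD46, 214 to 210 bases before its first start, chr1:207751812-207751841, plus strand: gggtcacaaataTGACGgcgagccagtcct
C1R, 106 to 99 bases before its first start, chr12:7092533-7092562, minus strand: agatcttttgtTTATGCAAatagttcattc

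TGACG, the core of the cAMP response element, occurred in 21.2% of the 35116 promoters of the table, and TTNNGCAA, written for the C/EBP factors of the acute-phase response, in 9.05%. Some GENCODE transcripts of CD55 and C1R start farther upstream, so these stretches can lie in a first exon. The stretches shown are not the only matches among the members, and other motifs were searched too. GGGCGG, in 42.6% of promoters, occurred before starts of CD55, CD46 and CD59. CCAAT, in 32.0%, occurred before starts of CFI, CD46 and CD59. TTCNNNGAA, in 6.57%, occurred before starts of C1R, CFB and CD59, and TGANTCA, also in 6.57%, before a start of CD59. TGACG also occurred before the first start of C1R. TTNNGCAA also occurred before another start of C1R and before a start of CD59, which passed no test against control with TMM. A match is a description of the letters and names no bound factor.

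CD46 (ENSG00000117335.20; chr1:207752057-207795513, plus strand), the cofactor with which factor I cleaves C3b and C4b, had 121, 107 and 135 CPM in senescent co-culture and 144, 131 and 141 CPM in young co-culture. In control it had 88.9, 119 and 108 CPM. Young co-culture lay above control, and senescent co-culture overlapped it. The log2 fold changes were 0.21 ± 0.14 (adjusted p = 0.45) and 0.41 ± 0.14 (adjusted p = 0.096). In ECM and CM, CD46 ranged from 81.1 to 123 CPM, which takes in the control values, and neighbours in the order of groups overlapped throughout. With the scaling to endothelial markers CD46 turned to lower in senescent co-culture against control, at −0.81, beside a median of all genes of −0.97. In young co-culture replicate 1, the library with the low TMM factor, CD46 was at 22.6 CPM with that factor and 10.4 CPM without it.

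CD59 (ENSG00000085063.17; chr11:33703010-33736491, minus strand), which blocks assembly of the membrane attack complex, was the most abundant member. It shares 6.07% of its exon bases with other entries on its strand. It had 1742, 1745 and 1713 CPM in senescent co-culture and 1353, 1608 and 1524 CPM in young co-culture. On senescent ECM it had 1875, 2072 and 2247 CPM, and on young ECM 2004, 2478 and 2117 CPM. Control had 1485, 1946 and 1849 CPM, so that control overlapped every group but young ECM. None of its 6 fold changes against control passed with TMM. With the scaling to endothelial markers CD59 was at −1.02 in senescent and −1.12 in young co-culture (adjusted p = 0.002 and 0.0017), beside medians of all genes of −0.97 and −0.86. Averaged co-culture was lower than ECM, at −0.43 ± 0.09 on the log2 scale (adjusted p = 0.0012). ECM against CM gave 0.28 ± 0.11 with an adjusted p of 0.10, which DESeq2 put at 0.048.

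**Figure D4:**
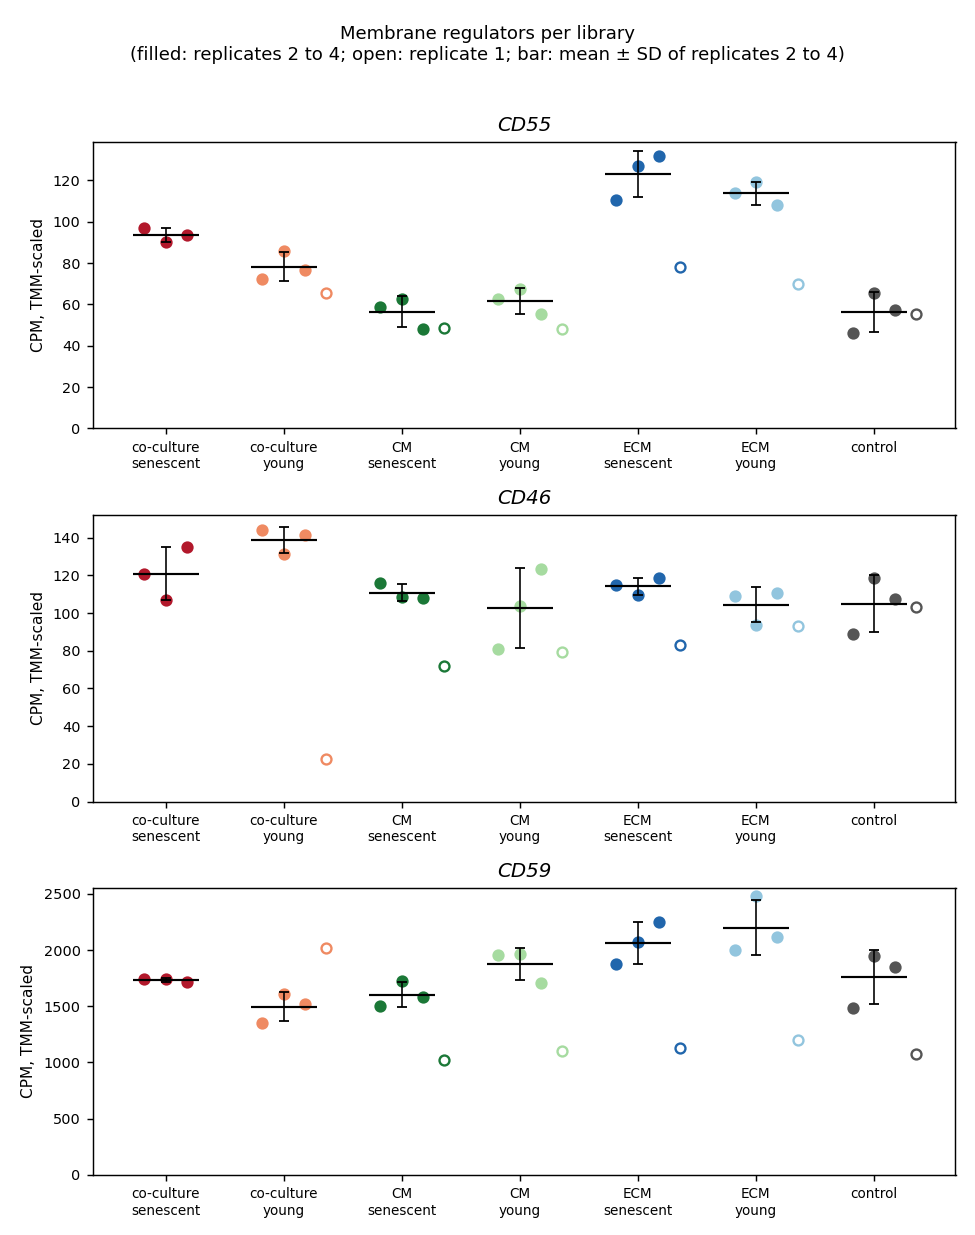
Levels of CD55, CD46 and CD59 in each library, in CPM with TMM scaling on a linear axis from 0, for the 7 groups; filled points are replicates 2 to 4, open points replicate 1, and bars give the mean ± SD of replicates 2 to 4. CD55 is high on both ECMs, intermediate in co-culture and low in CM and control, while CD46 and CD59 overlap control in most groups.

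The genes most like each membrane regulator over the 21 libraries were different ones. CD55 was most like KRT15 (r = 0.89), PPP3CC (0.88) and CDKN2D (0.87), CD46 most like ELF1 (0.95), LAMP2 (0.94) and PJA2 (0.93), and CD59 most like SFR1 (0.97), RTCA (0.95) and KYNU (0.94). Between CD55 and CD59 r was 0.63, and between CD46 and CD59 −0.43. SERPING1, at its few counts, was most like S100A4 (0.76), CXCL8 (0.75) and PTHLH (0.71).

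CFI (ENSG00000205403.14; chr4:109740694-109802179, minus strand), the protease that inactivates C3b and C4b, had 0 counts in 14 of 27 libraries. Its counts were 0, 1 and 1 in senescent co-culture, 8, 3 and 2 in young co-culture and 0, 0 and 1 in control. A count of 0 allows a level of up to 0.0269 to 0.0452 CPM in these libraries (3 counts of the total, counting error only), so no difference was read from it. CFI shares 32.0% of its exon bases with the overlapping entry ENSG00000285330 on the same strand, which had 0 counts throughout.

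CFB (ENSG00000243649.9; chr6:31945650-31952084, plus strand) was listed at 0 in all 27 libraries. It shares 45.5% of its exon bases with other entries on its strand. The entries that overlap it, C2 and ENSG00000244255, were at 0 as well. The surroundings of CFB were nearly empty too. Of 72 protein-coding genes within 500000 bp of it, 35 were at 0 in all libraries and 67 (93.1%) had a median under 10 counts, against 36.7% of all protein-coding genes. C2, the classical pathway counterpart of CFB, was at 0, and C4A and C4B, the genes of the C1S substrate C4, had at most 3 counts and 1 count. RPS18, a ribosomal protein gene of every cell that lies in the same wider region of chromosome 6, had a median of 8 counts, against 64414 for the other RPS genes. The zeros of CFB, C2, C4A and C4B are therefore given only as listed.

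The 52 other complement genes listed for this comparison were mostly low: 41 stayed under 1 CPM in all 21 libraries. Among the 20 tested in co-culture, 3 were higher and 1 lower with senescent MSCs against control, and 4 higher and 1 lower with young MSCs, where 8.05% and 9.68% of all genes were called. C1RL, a protease related to C1R, had 15.6 ± 0.35 CPM in senescent and 18.4 ± 1.50 CPM in young co-culture, against 8.27 ± 1.14 CPM in control (SD, n = 3 each; log2 fold changes 0.93 ± 0.14 and 1.16 ± 0.14, adjusted p = 0.0018 and 0.00046 in edgeR). PTX3, a pattern recognition protein that binds C1q, was lower, with 586 ± 41.2 and 532 ± 30.3 CPM in senescent and young co-culture against 1009 ± 202 CPM in control (−0.78 ± 0.15 and −0.92 ± 0.15, adjusted p = 0.0087 and 0.0034 in edgeR). The other genes called higher stayed under 5 CPM; they were COLEC12 and C3AR1 in both co-cultures and CFP in young co-culture, named here after their values were seen. Of the 22 tested in CM and ECM, edgeR called 0 in any CM or ECM group against control, where 0% to 0.649% of all genes were called. At an unadjusted p under 0.05 there were 4 on senescent ECM, 7 on young ECM, 4 in senescent CM and 0 in young CM. In ECM against CM, averaged over MSC state, 8 of the 22 were called higher and 0 lower, where 11.8% of all genes were called.

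Interferon, IL-1, TNF and IL-6 are known inducers of complement genes. Of 30 such pathway genes tested, 9 were higher and 1 lower in senescent co-culture against control, 6 higher and 2 lower in young co-culture against control, and 3 higher in senescent against young co-culture (IL1B, TNFAIP3 and, named after its values were seen, LIF). Of all genes, 8.05%, 9.68% and 0.395% were called in these comparisons. In CM and ECM against control the only one called was IL1B, on young ECM. In ECM against CM, averaged over MSC state, 8 of the 30 were called higher and 0 lower, where 11.8% of all genes were called. STAT3, the transducer of IL-6, had 141 ± 6.23 CPM in senescent and 142 ± 12.9 CPM in young co-culture, against 91.7 ± 12.01 CPM in control (SD, n = 3 each; log2 fold changes 0.63 ± 0.14 and 0.64 ± 0.14, adjusted p = 0.015 and 0.014 in edgeR). SOCS1, an inhibitor of that signalling, fell by 1.44 ± 0.31 in senescent and 1.50 ± 0.31 in young co-culture against control. SOCS3 rose by 0.97 ± 0.22 and NFKBIA by 0.71 ± 0.17 in senescent co-culture against control. The co-culture fold changes of these genes, and of C1RL and PTX3 above, are with TMM scaling. Their values under the scaling to endothelial markers, which lowered the median of all genes in co-culture, are not given here.

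IL1B, a cytokine of the IL-1 family, also separated the MSC states in co-culture, with 12.7 ± 2.99 CPM with senescent and 2.37 ± 0.43 CPM with young MSCs (SD, n = 3 each; log2 fold change 2.43 ± 0.21, adjusted p = 0.00056 in edgeR). TNFAIP3, the NF-kB feedback inhibitor, had 12.6 ± 1.25 CPM with senescent and 6.64 ± 1.23 CPM with young MSCs, a log2 fold change of 0.93 ± 0.17 (adjusted p = 0.042 in edgeR). Control had 11.6 ± 1.53 CPM of TNFAIP3. Against control, TNFAIP3 fell by 0.80 ± 0.17 on the log2 scale in young co-culture and was not called in senescent co-culture. IL1B too was high in replicate 1, at 69.7 CPM in control.

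For senescent against young MSCs outside co-culture, 0 of 7 members were called. In ECM edgeR called 0% of genes (0 of 18015, with 141 at an unadjusted p under 0.05, and 0 by DESeq2), and in CM 0.0167%. Members ranged from −0.25 to 0.24 in log2 fold change over both modes. Against control, 0 of 7 were called in young CM, where edgeR called 0% (846 genes at an unadjusted p under 0.05, and 34 by DESeq2), and 0 of 7 in senescent CM, where 0.505% were called. The largest member values in those comparisons were C1R at 0.58 ± 0.29 in both CM groups and SERPING1 at 0.67 ± 0.57 in young CM.

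The tests of whether the senescent-minus-young effect differed between modes called 1 of 7 members (C3) for co-culture minus CM, where 0.103% of all genes were called. They called 0 of 7 for co-culture minus ECM, where 0.0487% were. For CM minus ECM they called 0 of 7, where edgeR called 0% of genes (384 at an unadjusted p under 0.05, and 1 by DESeq2). C1S gave 1.25 ± 0.41 for co-culture minus CM, which did not pass (adjusted p = 0.54).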

How the data were processed

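The authors deposited 1 table of whole-number read counts per gene for all 27 libraries. Per the submitters' processing notes it was made with HISAT2 2.2.1 and featureCounts 2.0.1 on GRCh38 (hg38); the annotation release and strand setting were not given in sources used here. Per the labels, RNA was poly(A) selected, the library kit was directional, and all libraries came from 1 sequencing run. Of 60648 entries, 44 copies on the Y pseudoautosomal regions (109832 counts) were left out. Symbols came from a table of gene names (60462 IDs matched without version), and positions from GENCODE 29 (58336 matched).

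Levels are counts relative to the library total with TMM factors over all 27 libraries. Tests used edgeR 4.0.16 (glmQLFit, R 4.3.3) on replicates 2 to 4, with genes kept by filterByExpr at a minimum count of 10 and Benjamini-Hochberg adjustment at 0.05. Senescent against young and exposure against control were fitted on control, ECM and CM together (15 libraries, 18015 genes) and on control and co-culture (9 libraries, 17729 genes); comparisons between modes used all 21 libraries (18492 genes). Comparisons within a fit share their controls. The scripts were tested on simulated data. No pair of libraries within a group agreed within sampling noise (lowest chi-square per degree of freedom 21.9). Alternatives were other size factors, no filter, DESeq2 1.42.0, a replicate block, all 4 replicates, endothelial-marker scaling, a single fit, and leaving out each library.

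All 9 members are named; of the other lists, genes past the threshold in a pairwise comparison that averaged 5 CPM or more in either group. For likeness, the 3 protein-coding genes of at least 5 CPM with the highest Pearson r were named. The members and lists were chosen with earlier results of these data known.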

Additional observations from a re-analysis of the deposited data

Results flagged for a closer look

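In groups of 4 libraries, a library was listed where its gap to the nearest other was a larger share of the group's range than Dixon's 95% critical value. Chance lists about 1 in 20 groups; here 17 of 47 were listed, 15 of them for replicate 1. C1R was far above the rest of its group in replicate 1 of senescent CM (22.9 CPM), young CM (13.7 CPM), senescent ECM (9.11 CPM), young ECM (8.21 CPM) and control (17.7 CPM). C1S stood apart in the same 5 libraries, at 21.1, 11.7, 8.69, 8.61 and 17.2 CPM. C3 did so in replicate 1 of senescent CM (13.0 CPM), young ECM (4.20 CPM) and control (5.16 CPM), and SERPING1 in that of senescent CM (0.881 CPM). These libraries are the ones with 5149 to 9916 CPM of stromal markers; the part of that RNA in the values was not tested. CD46 was far below its group in replicate 1 of young co-culture (22.6 CPM). CFI stood apart at 0.0802 CPM in young co-culture replicate 2 and 0.0134 CPM in young CM replicate 4, values of 8 counts and 1 count.

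For C3 the senescent-minus-young effect differed between co-culture and CM, by 2.37 on the log2 scale (edgeR's quasi-likelihood test of the interaction, adjusted p = 0.033).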

How the results depend on the processing

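With all replicates 1 to 4 fitted, C1R and C1S turned negative: −1.60 and −1.36 in young co-culture against control, −1.05 and −0.46 in senescent co-culture against control, −1.32 and −0.78 in co-culture against CM, and −0.43 and −0.046 in co-culture against ECM. The members called were then 0 in senescent against young co-culture, in both ECM groups and both co-cultures against control, in co-culture against ECM and in the co-culture minus CM difference of senescence effects, and 1 in co-culture against CM. The shares of all genes called in those fits are not given here, so these counts are not read as particular to the members. Of the 6 libraries added, 5 hold the stromal RNA given above; the sixth, of young co-culture, does not.

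With endothelial-marker scaling, CD55 turned to −0.28 in senescent co-culture against control and −0.25 in co-culture against CM. The members called were 1 in young co-culture against control (CD59, lower) and 2 in co-culture against CM. No member called higher with TMM in these 2 comparisons stayed called higher. The shares of all genes called there under this scaling are not given here, and the median of all genes was lowered in both. C1R and C1S lost their calls in young co-culture against control, and C3, C1R and C1S in co-culture against CM. Under it 13743 of 17729 genes were called lower in senescent co-culture against control.

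In senescent against young co-culture 2 members were called with no filter and in DESeq2 (C1S added). In ECM against CM 2 were called in DESeq2, in a single fit over 21 libraries and with the replicate block (CD59 added). In the co-culture minus ECM difference of senescence effects 1 was called with no filter, in DESeq2 and with the replicate block (C3, 1.95, adjusted p = 0.0039). The cause of these moves was not tested. The replicate block also added CD55 in young co-culture against control (adjusted p = 0.047) and SERPING1 in senescent co-culture against control (adjusted p = 0.042), and changed no other call of a member. In deviations from group means, same-numbered libraries of different groups correlated at −0.19 to 0.58 (median 0.15, 39 of 63 pairs over 0.1). Differently numbered ones correlated at a median of −0.09 (20 of 126 over 0.1). The deviations of a group's 3 libraries sum to 0, so the second median is tied to the first and is no separate yardstick. Among the pairwise comparisons tested, all 3 same-numbered pairs exceeded 0.1 only for control with young ECM and with young CM. Outside those comparisons, they also did so for young ECM with young co-culture, senescent ECM with senescent CM, and senescent CM with young co-culture. The labels give no shared origin, and the fits without the block were kept. DESeq2's size factors in edgeR kept each of the 20 fold changes on its side of the threshold and each of the 15 counts within 1.5 times.

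Leaving out single libraries gave 1 to 4 members in young co-culture against control (4 without control replicate 3, with CD46 and CD55 added), 3 to 5 in senescent co-culture against control, 4 to 5 in co-culture against CM and 0 to 1 in the co-culture minus CM difference, where C3 ranged from 2.11 to 2.62. Without TMM, 4 of 49 group levels moved by over 1 SD. Few counts limit SERPING1 and CFI.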
